A study of Mus musculus with 2 samples.

Results

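The 47 genes described here carry the symbols of translation initiation factors (eIFs) and were detected in germinal center B cells of the mouse spleen. They are called initiation factor genes by symbol. Counts and sums over them include genes with other roles, such as Eif4ebp1, Eif4ebp2, Eif4a3, Eif5a2 and Eif6. Members were the genes whose symbol begins with Eif and a digit from 1 to 6, without the eIF2 kinase genes (Eif2ak) and without Eif5a, at 50 or more UMIs over both libraries, a UMI (unique molecular identifier) standing for 1 captured RNA molecule. Of 30905 genes listed in the deposited files, 51 matched the symbol pattern and 47 reached the minimum. The other 4 genes, Eif2c5, Eif2s3y, Eif4e1b and Eif4ebp3, had 0 UMIs in both libraries, which allows a level of up to 0.0509 CPM (UMIs per 1000000 UMIs) in library 1 and 0.0727 CPM in library 2, at 3 counts per library and for counting error only. The members nearest to the minimum were Eif3j2 with 206 UMIs, Eif4e3 with 241 UMIs and Eif5a2 with 540 UMIs.

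Initiation is the step at which a ribosome is placed on an mRNA. eIF2 brings the initiator tRNA to the small ribosomal subunit and is recharged with GTP by its exchange factor eIF2B, eIF3 is the large scaffold on that subunit, and eIF1, eIF1A and eIF5 govern the choice of the start codon. The cap complex eIF4F consists of the cap-binding protein eIF4E, the RNA helicase eIF4A and the scaffold eIF4G, and the 4E-binding proteins hold eIF4E inactive until mTORC1 phosphorylates them. In germinal centers, B cells divide and mutate their antibody genes in the dark zone and are tested for antigen binding in the light zone, where the selected cells transiently induce the transcription factor Myc, a known driver of ribosome and translation factor genes.

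The cells came from spleens of 8-week-old C57BL/6J mice, an inbred strain, that had received sheep red blood cells as antigen. In 2 droplet libraries of 1 group, here library 1 and library 2, single-cell sequencing counted the 3′ ends of transcripts, and all comparisons were made between classes of cells inside them. There were no untreated mice, and the labels name neither the sort markers nor the number of animals. With the library as a block, p-values rest on how far the class differences varied between these libraries, with spread shared across genes. Since nothing says that the libraries came from separate animals, that variation may be technical only.

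After filtering at 500 genes, 1000 UMIs and 20% mitochondrial UMIs, 5142 barcodes of library 1 and 3526 of library 2 were kept, with medians of 8183.5 and 8243 UMIs. The libraries shared 22 barcode sequences, 9 of them among the kept barcodes. All 11 germinal center B markers were detected, at summed levels of 5319 and 5467 CPM. T cell markers summed to 1.34 and 2.64 CPM, and macrophage markers to 14.7 and 7.83 CPM. Naive B markers summed to 315 and 344 CPM. Xist stood at 1904 and 1505 CPM while Ddx3y and Kdm5d had 0 UMIs, which bears on the absent Y-linked Eif2s3y.

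Initiation factor genes spanned a wide range of abundance. Each captured molecule is counted once at its 3′ end, so that levels were not scaled by length. Eif1, which guards the fidelity of start codon choice, was the most abundant member at 1268 CPM in library 1 and 1505 CPM in library 2 (mean 1387 ± 168, SD, n = 2). Eif4a1, the main helicase of the cap complex, followed at 606 and 758 CPM, and the eIF3 subunit genes Eif3f and Eif3h stood at 614 and 671 CPM and at 521 and 608 CPM. The median member lay at 173 CPM, and the lowest were Eif3j2 at 2.17 and 1.89 CPM and Eif4e3, an alternative cap-binding protein, at 2.41 and 2.40 CPM. In all, 44 of 47 members had at least 1000 UMIs. Eif3j2 is a near-identical copy of Eif3j1, so reads may have been divided between them and both values are uncertain. All members together took 10219 CPM of library 1 and 11261 CPM of library 2, and 35 of 47 were higher in library 2, with a median log2 difference of 0.12. Every comparison below therefore held the library as a block.

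Myc activates genes through the E-box CACGTG, a palindrome that reads alike on both strands. The stretches of 250 bases before the RefSeq start sites (GRCm38.p6, the build also called mm10) of the 3 core eIF4F genes that hold this motif are shown 5′ to 3′ on the gene's strand, with the motif in capitals, because Eif4e and Eif4a1 are among the 8 members with the lowest adjusted p in the Myc comparison described next, whereas Eif4g1 did not pass that test. The windows lie at chr3:138527018-138527267 (plus strand) for Eif4e, chr11:69672424-69672673 (minus strand) for Eif4a1 and chr16:20672477-20672726 (plus strand) for Eif4g1.
Eif4e: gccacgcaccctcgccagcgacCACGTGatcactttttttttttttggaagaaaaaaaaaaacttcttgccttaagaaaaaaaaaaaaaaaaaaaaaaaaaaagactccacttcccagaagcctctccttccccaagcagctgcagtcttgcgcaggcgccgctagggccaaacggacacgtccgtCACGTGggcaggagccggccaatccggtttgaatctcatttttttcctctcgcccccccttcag
Eif4a1: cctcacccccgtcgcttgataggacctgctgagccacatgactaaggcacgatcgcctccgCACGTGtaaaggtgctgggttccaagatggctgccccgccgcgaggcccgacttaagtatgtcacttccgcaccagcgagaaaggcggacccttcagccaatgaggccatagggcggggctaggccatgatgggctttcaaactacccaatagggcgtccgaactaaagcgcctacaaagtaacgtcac
Eif4g1: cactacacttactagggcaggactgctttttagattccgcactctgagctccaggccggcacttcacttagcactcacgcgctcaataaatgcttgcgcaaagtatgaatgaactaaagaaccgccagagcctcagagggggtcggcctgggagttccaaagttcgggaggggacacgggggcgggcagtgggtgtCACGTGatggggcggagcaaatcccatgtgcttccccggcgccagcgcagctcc

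The Eif4e window held the motif at positions -228 and -64 from the start site, the Eif4a1 window at -189 and the Eif4g1 window at -54. Eif4g1 also held the motif at position 15, after the start site and outside the stretch shown. In the GENCODE annotation (release M21, mm10), the Eif4e gene spans positions 138526179 to 138559696 of chromosome 3, so that its window lies inside the annotated span, the Eif4g1 gene spans 20668313 to 20692884 of chromosome 16 and likewise contains its window, and the Eif4a1 gene spans 69666936 to 69672423 of chromosome 11. A second RefSeq start of Eif4e, whose window begins at position 138525941 of chromosome 3, had none. Over windows from 250 bases before to 50 bases after the start, 9 of the 37 members with a RefSeq window held at least 1 match (24.3%), against 2187 of all 27025 genes with a window (8.09%). For 10 members no window was found. Among the members called higher by Myc below, 3 of 15 held the motif (20%), against 6 of 22 of the members not called (27.3%). A match is a description of these letters and not of Myc binding.

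**Figure D1:**
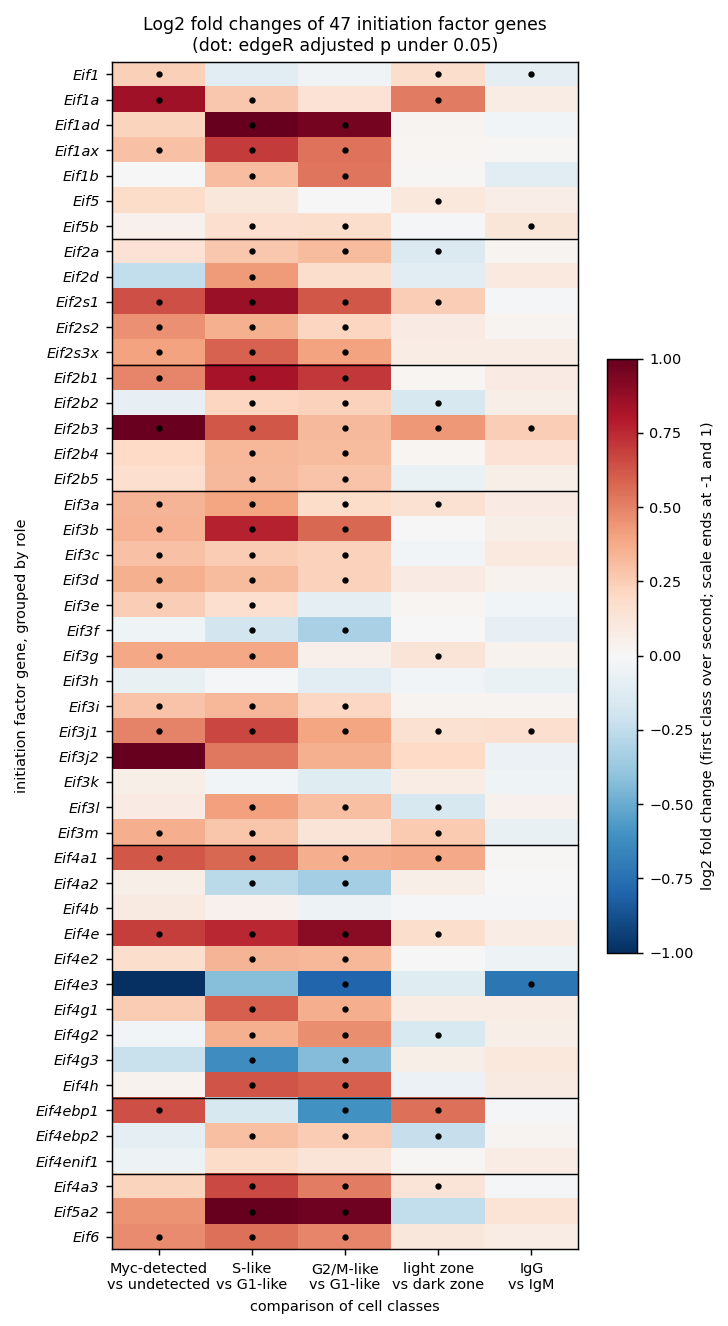
Log2 fold changes of the 47 initiation factor genes (rows, grouped by role) in 5 comparisons of cell classes (columns), with the first class over the second on a color scale that ends at -1 and 1. Dots mark an edgeR adjusted p under 0.05, and the Myc column holds 21 dots, all on positive values.

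Myc-detected light zone cells carried more initiation factor mRNA than their Myc-undetected counterparts, and each role group of the machinery had members among those called. After each cell was thinned to 3400 UMIs, cells in which Cd83 or Cd86 was detected (at least 1 UMI) and Cxcr4 was not formed the light zone gate. They were called Myc-detected if they also had at least 1 Myc UMI. Myc-detected cells numbered 112 in library 1 and 111 in library 2, against 1559 and 1046 Myc-undetected cells. Of 47 members, 21 were higher and 0 lower in Myc-detected cells (edgeR adjusted p under 0.05, Benjamini-Hochberg over all genes tested), whereas of all 10068 genes tested 16.6% were called, 10.3% higher and 6.36% lower. The median log2 fold change was 0.24 over the members and -0.01 over all genes. All 21 called members were higher in both libraries. DESeq2 called 8 members, beside 401 of the 10068 genes: Eif4a1, Eif4e, Eif2s1, Eif2s2, Eif2b3, Eif1a, Eif6 and Eif3a. The members together took 11431 and 13384 CPM in Myc-detected cells, against 10228 and 11199 CPM in Myc-undetected cells.

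In the cap complex, the cap-binding protein and its main helicase rose. Eif4e, the limiting cap-binding subunit, had 113.5 and 147.7 CPM in Myc-detected cells, against 75.2 and 89.4 CPM in Myc-undetected cells (log2 fold change 0.69 ± 0.117 SE, edgeR adjusted p = 3.08e-06). Eif4a1 had 912 and 1237 CPM in Myc-detected cells, against 639 and 779 CPM in Myc-undetected cells (0.62 ± 0.0747, adjusted p = 2.48e-10). For both genes the lower Myc-detected library lay above the higher Myc-undetected one. The other 8 genes of this group did not pass the test. Eif4a2, the paralogous helicase, had 167.5 and 201.1 CPM in Myc-detected cells, against 179.9 and 181.4 CPM in Myc-undetected cells (0.06 ± 0.106). The scaffold gene Eif4g1 had 198.2 and 284.7 CPM in Myc-detected cells, against 203.6 and 205.5 CPM in Myc-undetected cells (0.26 ± 0.104, adjusted p = 0.0801), and its values overlapped between the classes. At a mitochondrial limit of 10%, Eif4g1 was called higher in Myc-detected cells (0.47 ± 0.0966, edgeR adjusted p = 3.84e-05). Eif4g2, an eIF4G relative that lacks the binding site for eIF4E, differed by -0.03 on the log2 scale, and Eif4g3 by -0.22. Eif4ebp1, which encodes a repressor of eIF4E, rose as well, with 45.4 and 49.2 CPM in Myc-detected cells, against 26.2 and 35.6 CPM in Myc-undetected cells (0.65 ± 0.159, adjusted p = 0.00162), a call that ended under DESeq2, on thinned counts and without barcodes that held a naive or memory marker UMI. Eif4e3 rested on 2 and 1 UMIs in Myc-detected cells, against 40 and 33 UMIs in Myc-undetected cells. The second 4E-binding protein gene, Eif4ebp2, did not pass the test (-0.09 ± 0.121).

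The 3 genes of the eIF2 heterotrimer passed the edgeR test, and of these Eif2s1 was also called under DESeq2, on thinned counts, without the library block and without barcodes that held a naive or memory marker UMI. Eif2s1, the alpha subunit that carries the regulatory phosphorylation site, had 225.6 and 288.9 CPM in Myc-detected cells, against 148.3 and 186.3 CPM in Myc-undetected cells (0.65 ± 0.101, edgeR adjusted p = 4.76e-07). Eif2s2, the beta subunit, had 446 and 435 CPM in Myc-detected cells, against 343 and 313 CPM in Myc-undetected cells (0.46 ± 0.0893, adjusted p = 6.14e-05), and Eif2s3x, the gamma subunit, differed by 0.40 ± 0.124. The Eif2s3x call ended under all 4 of those alternatives, and the Eif2s2 call on thinned counts and without the block. In eIF2B, 2 of 5 subunit genes rose, Eif2b3 and Eif2b1. Eif2b3 had 34.7 and 42.1 CPM in Myc-detected cells, against 18.4 and 21.1 CPM in Myc-undetected cells (0.99 ± 0.178, adjusted p = 1.32e-05), the largest log2 fold change among the called members. Eif2b2, Eif2b4 and Eif2b5, subunits of the same complex, differed by -0.08, 0.20 and 0.17 and did not pass. The tRNA-delivery genes Eif2a and Eif2d, which act outside the eIF2 complex, did not pass either.

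Of 14 eIF3 genes, 9 were called higher and 0 lower by edgeR. The 9 were Eif3a, Eif3b, Eif3c, Eif3d, Eif3e, Eif3g, Eif3i, Eif3j1 and Eif3m, with log2 fold changes between 0.25 for Eif3e and 0.50 for Eif3j1. How many of these calls held depended on the alternative. DESeq2 called only Eif3a, thinned counts Eif3b and Eif3j1, the set without naive or memory markers Eif3j1, and the fit without the library block 0. G1-like cells alone gave no such call. All but Eif3e held at equal phase shares, and all but Eif3e, Eif3i and Eif3m at a mitochondrial limit of 10%. At a limit of 40% all 9 held. Eif3f, Eif3h, Eif3k and Eif3l differed by -0.04, -0.07, 0.06 and 0.08. Eif3j2 gave 1.17 ± 0.538 on 9 and 3 UMIs in Myc-detected cells, against 33 and 19 UMIs in Myc-undetected cells, and was not called. In the group of eIF1, eIF1A and start codon selection, Eif1a, Eif1ax and Eif1 rose (3 of 7). Eif1a, an eIF1A gene, had 85.4 and 110.3 CPM in Myc-detected cells, against 55.6 and 55.4 CPM in Myc-undetected cells (0.85 ± 0.127, edgeR adjusted p = 2.15e-07). Eif5 and Eif5b, which promote GTP hydrolysis and subunit joining, differed by 0.18 and 0.04 without passing. Eif6, which keeps ribosomal subunits apart, had 168.8 and 285.9 CPM in Myc-detected cells, against 148.7 and 179.5 CPM in Myc-undetected cells (0.47 ± 0.106, adjusted p = 0.000522), and its classes overlapped across libraries although both libraries showed the higher value in Myc-detected cells.

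**Figure D2:**
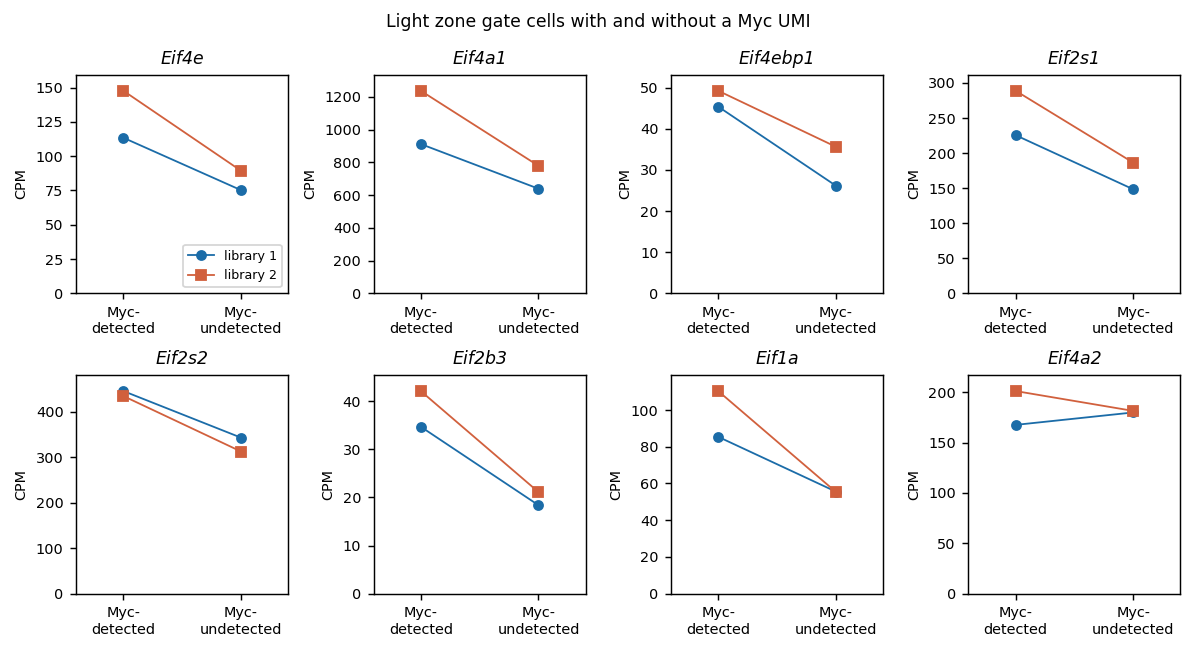
CPM of 8 initiation factor genes in light zone gate cells with (left) and without (right) a Myc UMI, in library 1 (circles) and library 2 (squares), lines joining the classes of a library. For 7 of the genes both lines run higher in Myc-detected cells, whereas for Eif4a2 the libraries run in opposite directions, at 167.5 and 201.1 CPM in Myc-detected cells, against 179.9 and 181.4 CPM in Myc-undetected cells.

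The cell cycle distribution of the classes was alike, with 26.8% and 23.4% G1-like cells among Myc-detected cells, against 25.2% and 22.1% among Myc-undetected cells. With cells drawn to equal phase shares, 20 of the 21 calls remained, beside 1638 of 10014 genes called. Depth moved with the comparison in library 2, at a median of 11509 UMIs in Myc-detected cells against 8538 UMIs in Myc-undetected cells, and mitochondrial UMIs took a median of 9.46% in Myc-detected cells, against 13.2% in Myc-undetected cells there. In library 1 the median depth was 8312 UMIs in Myc-detected cells, against 8133 UMIs in Myc-undetected cells, and the mitochondrial median was 13.3% in both classes. At a mitochondrial limit of 10%, 16 members were called, all higher, beside 1357 of 9486 genes called in either direction. Of these members, 15 were among the 21 calls, and the other was Eif4g1. On sums of thinned counts, 6 members were called, beside 307 of 8804 genes. All of these members were among the 21: Eif4a1, Eif4e, Eif2s1, Eif1a, Eif3j1 and Eif3b. Naive B markers summed to 475 and 539 CPM in Myc-detected cells, against 433 and 478 CPM in Myc-undetected cells, and germinal center B markers to 4914 and 4342 CPM in Myc-detected cells, against 5693 and 6013 CPM in Myc-undetected cells. Without the barcodes that held a UMI of Ccr7, Ccr6 or Cd38, 7 members were called, all higher and all among the 21. Of all 9839 genes tested, 740 were called there.

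Myc-detected cells outside the light zone gate were few. Eif4a1 stood at 818 and 784 CPM in the 19 and 14 Myc-detected cells that had both zone signals, against 444 and 559 CPM in the Myc-undetected cells of that gate, and at 849.8 and 1049 CPM in the 65 and 59 Myc-detected cells with neither signal, against 635 and 769.9 CPM in Myc-undetected cells of that gate. In the dark zone gate, the 25 and 19 Myc-detected cells had 496 and 654 CPM, against 491 and 650.5 CPM in Myc-undetected cells. These levels carry no test. Whether the Myc difference itself differed between cycling and G1-like cells was tested as an interaction: 0 of 45 members tested were called by edgeR and 0 by DESeq2, 1 had an unadjusted p under 0.05 in edgeR, and the background of called genes was 0.0115%. The lowest adjusted p among members was 0.80 by edgeR, with 30 and 26 Myc-detected G1-like cells behind it.

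Cycling cells carried more initiation factor mRNA than G1-like cells, in most but not all members. Phases were called from scores of 43 S phase and 54 G2/M genes, none of them a member. G1-like cells numbered 806 and 472, S-like cells 1518 and 1109, and G2/M-like cells 2353 and 1554. Since phases are cut from continuous scores, 14.6% and 12.9% of scored cells lay within 0.05 of a boundary. In S-like cells 35 members were higher and 3 lower than in G1-like cells, beside 28.5% and 27.7% of all genes tested, 56.2% in either direction (edgeR). In G2/M-like cells 30 members were higher and 5 lower, beside 27.9% and 26.7% of all genes, 54.5% in either direction. The median member log2 fold change was 0.33 for S-like and 0.26 for G2/M-like cells, against -0.03 and -0.01 over all genes. Both comparisons share the G1-like cells. All called members moved the same way in both libraries. Summed over members, the level was 9332 and 10598 CPM in G1-like, 10765 and 11739 CPM in S-like and 10119 and 11159 CPM in G2/M-like cells.

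In edgeR all 5 genes of the eIF2 group and all 5 of eIF2B were higher in S-like cells, and 4 and 5 were higher in G2/M-like cells. DESeq2 called 3 of the eIF2 group in S-like and 4 in G2/M-like cells, and of eIF2B Eif2b1 alone in both. On thinned counts 1 eIF2B gene was called in S-like and 2 in G2/M-like cells. Eif2s1 had 91.2 and 138.3 CPM in G1-like, 180.4 and 217 CPM in S-like and 147.5 and 190.3 CPM in G2/M-like cells (S-like over G1-like 0.87 ± 0.075, edgeR adjusted p = 9.34e-13). The G1-like values lay below all others. Eif4e had 44.0 and 59.7 CPM in G1-like, 77.2 and 89.4 CPM in S-like and 82.7 and 105.2 CPM in G2/M-like cells (G2/M-like over G1-like 0.91 ± 0.0778, adjusted p = 1.83e-15). Of the eIF3 genes, 10 were higher and 1 lower in S-like cells, and 7 were higher and 1 lower in G2/M-like cells. On thinned counts Eif3b, Eif3c, Eif3i, Eif3j1 and Eif3l were called higher in G2/M-like cells, and Eif3e, Eif3f, Eif3h and Eif3k lower. At a mitochondrial limit of 10%, Eif3a, Eif3b, Eif3c, Eif3d, Eif3j1 and Eif3l were higher there, and Eif3f, Eif3h and Eif3k lower. Eif3b, a core scaffold subunit, had 150.4 and 147.8 CPM in G1-like, 245 and 248 CPM in S-like and 210.4 and 224.5 CPM in G2/M-like cells (S-like over G1-like 0.77 ± 0.0659, adjusted p = 6.82e-13).

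The group of eIF1, eIF1A and start codon selection held 7 genes, among them Eif1ad and Eif5b, which are not all start codon factors. Of these genes, 5 were higher in S-like and 4 in G2/M-like cells, and none was lower on unthinned counts at the filtering limits given above. At a mitochondrial limit of 10%, edgeR called Eif1 lower in S-like cells (-0.24 ± 0.0806, adjusted p = 0.00816). It was called lower in G2/M-like cells too at that limit (-0.19 ± 0.0792, adjusted p = 0.0433). Eif1ad, which encodes an eIF1A domain protein, had 31.8 and 39.3 CPM in G1-like, 65.0 and 71.5 CPM in S-like and 62.7 and 70.4 CPM in G2/M-like cells (G2/M-like over G1-like 0.96 ± 0.0885, edgeR adjusted p = 2.83e-14). Eif1ax was 0.70 higher in S-like and 0.54 higher in G2/M-like cells on the log2 scale, and Eif4h, a cofactor of the eIF4A helicase, 0.63 and 0.60. Eif4a1 was 0.57 and 0.36 higher, Eif4g1 0.60 and 0.36, and Eif4g2 0.35 and 0.47. Eif4a3, the helicase of the exon junction complex rather than of initiation, was 0.66 and 0.51 higher, and Eif6 0.55 and 0.49. Eif5a2, a relative of the elongation factor eIF5A, gave the largest log2 difference of the called members at 1.05 and 0.98, at levels of only 1.83 to 6.31 CPM.

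A small set ran the other way on unthinned counts. Eif4g3, an eIF4G paralog, had 98.8 and 100.5 CPM in G1-like, 64.1 and 61.1 CPM in S-like and 74.2 and 68.1 CPM in G2/M-like cells (S-like over G1-like -0.62 ± 0.0766, edgeR adjusted p = 7.09e-09). Eif4a2 had 213 and 216 CPM in G1-like, 170.3 and 174.6 CPM in S-like and 165.2 and 165.6 CPM in G2/M-like cells (G2/M-like over G1-like -0.34 ± 0.0563, adjusted p = 8.07e-07). Eif3f, an eIF3 subunit, had 744 and 817 CPM in G1-like, 631 and 703 CPM in S-like and 581 and 630.1 CPM in G2/M-like cells (-0.33 ± 0.0562, adjusted p = 1.4e-06). For these 3 genes all cycling values lay below all G1-like values. Eif4ebp1 had 33.5 and 43.3 CPM in G1-like, 30.8 and 35.2 CPM in S-like and 21.2 and 28.0 CPM in G2/M-like cells. It fell in G2/M-like cells (-0.61 ± 0.0978, adjusted p = 3.43e-07) and did not pass in S-like cells (-0.16 ± 0.105, adjusted p = 0.202). At a mitochondrial limit of 10%, Eif4ebp1 was called lower in S-like cells too (-0.48 ± 0.112, edgeR adjusted p = 7.38e-05). S-like and G2/M-like cells were not tested against each other. Eif4e3 was lower in G2/M-like cells by a log2 fold change of -0.79 ± 0.334 (adjusted p = 0.0401). Eif1, Eif5, Eif4b, Eif4enif1, Eif3h, Eif3k and Eif3j2 passed in neither comparison on unthinned counts at the filtering limits given above. At a mitochondrial limit of 10%, edgeR called Eif1 lower in S-like (-0.24) and G2/M-like cells (-0.19). Eif3k (-0.16) and Eif3h (-0.18) were called lower in G2/M-like cells at that limit. On thinned counts edgeR called Eif1 lower in S-like cells (-0.18). It then also called Eif3e (-0.24), Eif3k (-0.16) and Eif3h (-0.13) lower in G2/M-like cells. Without the count filter, Eif4enif1 (0.25) and Eif5 (0.17) were called higher in S-like cells, and with other size factors Eif4enif1 (0.20).

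**Figure D3:**
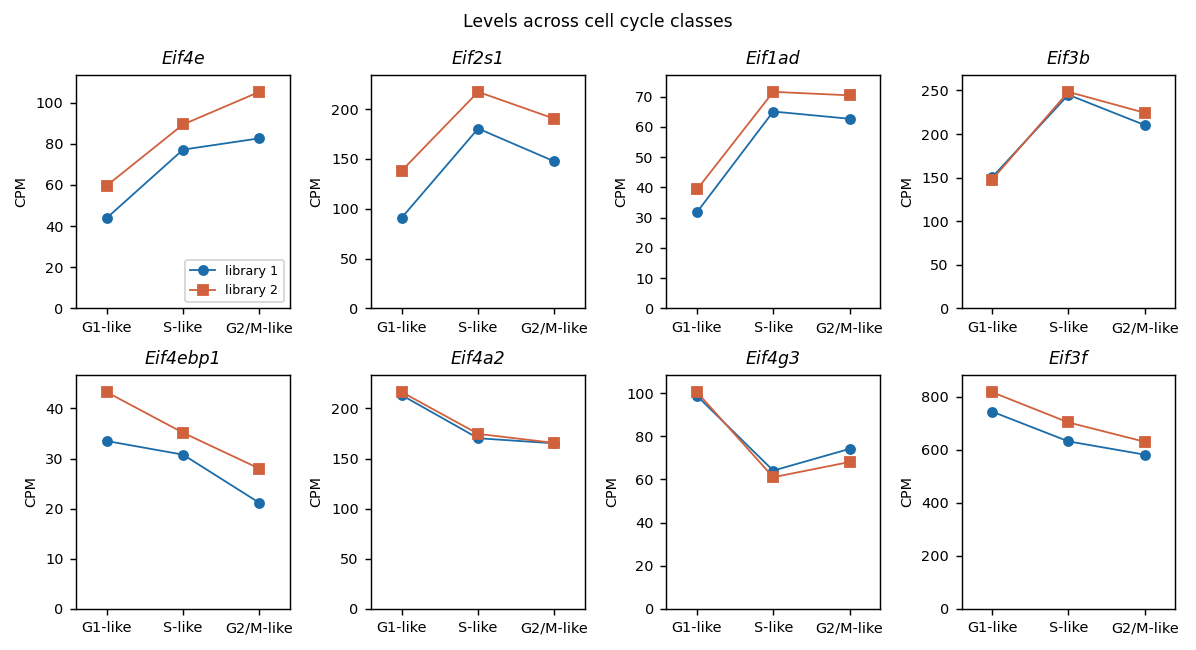
CPM of 8 initiation factor genes in G1-like, S-like and G2/M-like cells of library 1 (circles) and library 2 (squares), lines joining the classes of a library. Eif4e, Eif2s1, Eif1ad and Eif3b are lowest in G1-like cells, whereas Eif4ebp1, Eif4a2, Eif4g3 and Eif3f are highest there.

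The G1-like class differed in depth and makeup too. Median depth was 5410 and 5626.5 UMIs in G1-like, 9372.5 and 9763 UMIs in S-like and 10512 and 10406 UMIs in G2/M-like cells. Naive B markers summed to 707 and 816 CPM in G1-like, 284 and 309.7 CPM in S-like and 262 and 288 CPM in G2/M-like cells, and macrophage markers to 82.6 and 26.2 CPM in G1-like, 6.63 and 5.93 CPM in S-like and 6.21 and 6.36 CPM in G2/M-like cells. Without barcodes that held a naive or memory marker UMI, 37 members were called in S-like and 34 in G2/M-like cells, beside 5423 of 10382 and 5289 of 10648 genes. Without barcodes that held a marker of macrophages or other lineages, 37 and 34 were called, beside 5958 of 10525 and 5802 of 10881 genes. On thinned counts 23 members were higher and 4 lower in S-like cells, beside 3900 of 9440 genes called in either direction. In G2/M-like cells 22 were then higher and 8 lower, beside 4104 of 9697 genes. At a mitochondrial limit of 10%, 29 members were higher and 5 lower in S-like cells, beside 4491 of 9591 genes called. In G2/M-like cells 25 were higher and 7 lower at that limit, beside 4640 of 10296 genes. The median member log2 fold change was then 0.28 for S-like and 0.20 for G2/M-like cells.

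Light zone gate cells differed from dark zone gate cells in part of the machinery. In dark zone gate cells Cxcr4 was detected while Cd83 and Cd86 were not, which reads the sorting markers of the zones as RNA and separates the zones only in part. Light zone gate cells numbered 1671 and 1157, and dark zone gate cells 759 and 490. In light zone gate cells 13 members were higher and 5 lower (edgeR), beside 15.5% and 13.9% of all 10655 genes tested, 29.4% in either direction. DESeq2 called 5 members, Eif4a1, Eif1a, Eif1, Eif2s1 and Eif3m, beside 810 of the 10655 genes. Without the library block edgeR called Eif1a alone, beside 360 genes. The median member differed by 0.03 on the log2 scale, against -0.00 over all genes, and all members together took 10323 and 11470 CPM in light zone gate cells, against 9741 and 10836 CPM in dark zone gate cells.

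Eif4a1 showed the lowest adjusted p, with 660.4 and 835 CPM in light zone gate cells, against 491.5 and 650.7 CPM in dark zone gate cells (0.38 ± 0.0325, edgeR adjusted p = 5.92e-30). The classes did not overlap, although library 1 in the light zone gate and library 2 in the dark zone gate came close. Eif4ebp1 showed the largest log2 difference of the 47 members, with 27.7 and 37.3 CPM in light zone gate cells, against 17.9 and 26.5 CPM in dark zone gate cells (0.55 ± 0.1, adjusted p = 5.68e-07). Eif1a had 57.9 and 62.2 CPM in light zone gate cells, against 39.0 and 44.8 CPM in dark zone gate cells (0.52 ± 0.0739, adjusted p = 6.83e-11), and these classes did not overlap. Eif1 had 1331 and 1598 CPM in light zone gate cells, against 1173 and 1400 CPM in dark zone gate cells (0.18 ± 0.026, adjusted p = 3.04e-10), and Eif3m, an eIF3 subunit, had 208 and 269 CPM in light zone gate cells, against 174.2 and 220.5 CPM in dark zone gate cells (0.26 ± 0.0457, adjusted p = 1.72e-07). Eif2s1, Eif3a and Eif2b3 were higher by 0.25, 0.15 and 0.43 on the log2 scale. Eif4e was higher by 0.17 ± 0.0609 (adjusted p = 0.0193), and Eif5, Eif3g, Eif3j1 and Eif4a3 by 0.10 to 0.15.

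The members lower in light zone gate cells included the other 4E-binding protein. Eif4ebp2 had 107.2 and 98.6 CPM in light zone gate cells, against 124.5 and 115.8 CPM in dark zone gate cells (-0.23 ± 0.0555, edgeR adjusted p = 0.000201), without overlap. Eif4g2 had 414 and 411 CPM in light zone gate cells, against 465 and 444 CPM in dark zone gate cells (-0.15 ± 0.0368, adjusted p = 0.000276), again without overlap. Eif3l, Eif2b2 and Eif2a were lower by log2 fold changes of -0.16, -0.16 and -0.15. In edgeR Eif4ebp1 was thus higher and Eif4ebp2 lower in light zone gate cells, and both calls ended under DESeq2 and without the library block. Summed member levels were 9464 and 10453 CPM in cells with both zone signals, below either gate, and 10576 and 11561 CPM in cells with neither signal, above either gate.

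**Figure D4:**
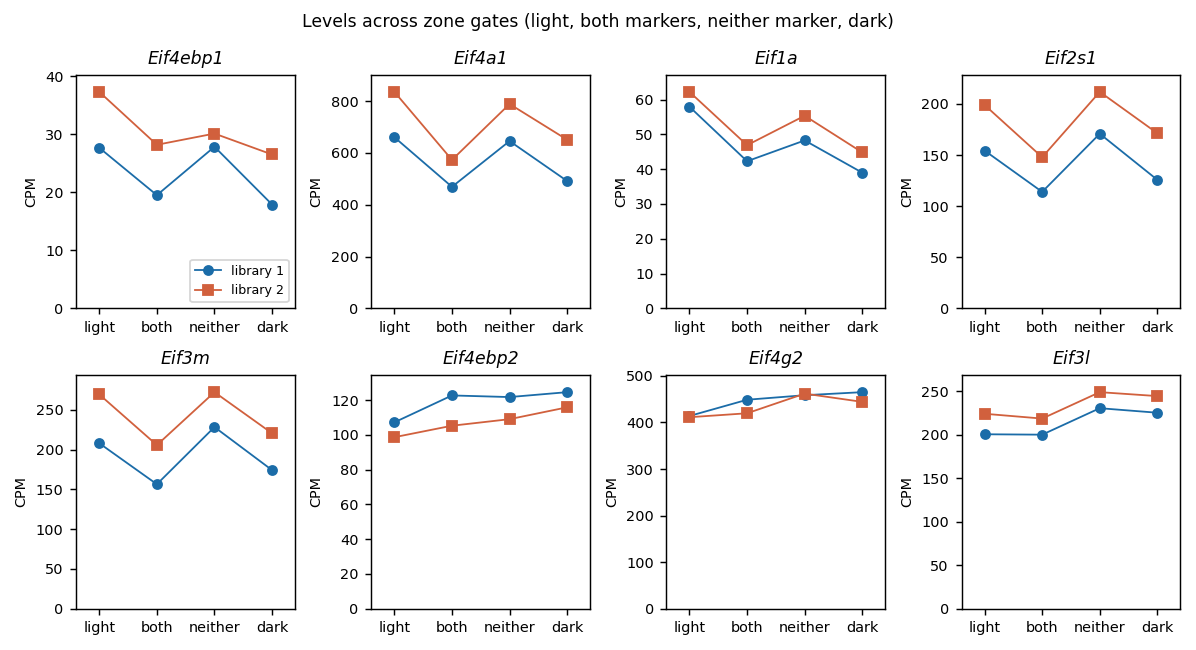
CPM of 8 initiation factor genes in cells of the light zone gate, with both zone signals, with neither signal and of the dark zone gate, in library 1 (circles) and library 2 (squares). Eif4ebp1, Eif4a1, Eif1a, Eif2s1 and Eif3m are higher in the light than in the dark zone gate in both libraries, and Eif4ebp2, Eif4g2 and Eif3l are lower.

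Cell cycle shares differed between the gates. G1-like cells made up 25.3% and 22.2% of light zone gate cells, against 12.4% and 11.0% of dark zone gate cells. With cells drawn to equal phase shares, 9 members were higher and 3 lower, beside 2176 of 10465 genes called in either direction. Of these 12 members, 11 were among the 18 calls. The Eif4a1 difference was then 0.38 and that of Eif4ebp1 0.42 on the log2 scale. Among G1-like cells alone only Eif4a1 (0.55) and Eif2b1 (1.38) were called, beside 516 of 7879 genes, with 94 and 54 dark zone gate cells. Eif2b1, which was not among the 18 calls, rested there on 60 and 78 UMIs in light zone gate cells, against 8 and 2 UMIs in dark zone gate cells. Eif4a1 stood higher in the light zone gate within every phase of each library, as a description with no test. It had 521 and 723 CPM in G1-like light zone gate cells, against 342 and 513 CPM in G1-like dark zone gate cells. In S-like cells it had 735 and 874 CPM in the light zone gate, against 554 and 774 CPM in the dark zone gate, and in G2/M-like cells 645 and 839 CPM in the light zone gate, against 482 and 602 CPM in the dark zone gate. Naive B markers summed to 436 and 485 CPM in light zone gate cells, against 232 and 263 CPM in dark zone gate cells. Without barcodes that held a naive or memory marker UMI, 16 of the 18 calls remained, beside 2671 of 10436 genes called. Mitochondrial UMIs took medians of 13.3% and 12.9% in light zone gate cells, against 13.9% and 14.6% in dark zone gate cells. At a mitochondrial limit of 10%, 10 members were higher and 6 lower, beside 2357 of 9914 genes called, and 12 of the 18 calls remained. The calls of Eif1, Eif3m, Eif5, Eif4a3, Eif4ebp2 and Eif3l ended there.

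Few initiation factor genes differed between IgG and IgM cells. Cells were assigned by at least 5 heavy chain constant region UMIs with at least 80% of one class, giving 2192 and 1437 IgG cells, against 1775 and 1323 IgM cells. In IgG cells 3 members were higher and 2 lower (edgeR), which is 10.6% of members beside 14.0% of all 11231 genes tested (5.87% higher and 8.17% lower). Eif3j1 had 105.2 and 91.2 CPM in IgG cells, against 92.7 and 79.7 CPM in IgM cells (0.17 ± 0.0454, adjusted p = 0.0042). Eif5b and Eif2b3 were higher by 0.12 and 0.24, and Eif1 was lower by a log2 fold change of -0.10. Eif4e3 showed the widest difference, at 1.63 and 1.88 CPM in IgG cells, against 2.80 and 2.87 CPM in IgM cells (-0.72 ± 0.225, adjusted p = 0.016). These levels rest on 41 and 33 UMIs in IgG cells, against 58 and 45 UMIs in IgM cells.

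The isotype calls were not stable. With DESeq2 0 members were called, beside 274 of 11231 genes, and 3 members had an unadjusted p under 0.05. Without barcodes that held a naive or memory marker UMI only Eif1 remained, beside 958 of 11029 genes called. Naive B markers summed to 247 and 275.4 CPM in IgG cells, against 402.5 and 437 CPM in IgM cells. With isotypes read on thinned counts, 0 members were higher and 5 lower, beside 1669 of 11046 genes called in either direction. Whether the zone difference differed between IgG and IgM cells was tested as an interaction: 0 of 47 members were called by edgeR and 0 by DESeq2, 5 had an unadjusted p under 0.05 in edgeR, and 0.0200% of all genes were called.

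**Figure D5:**
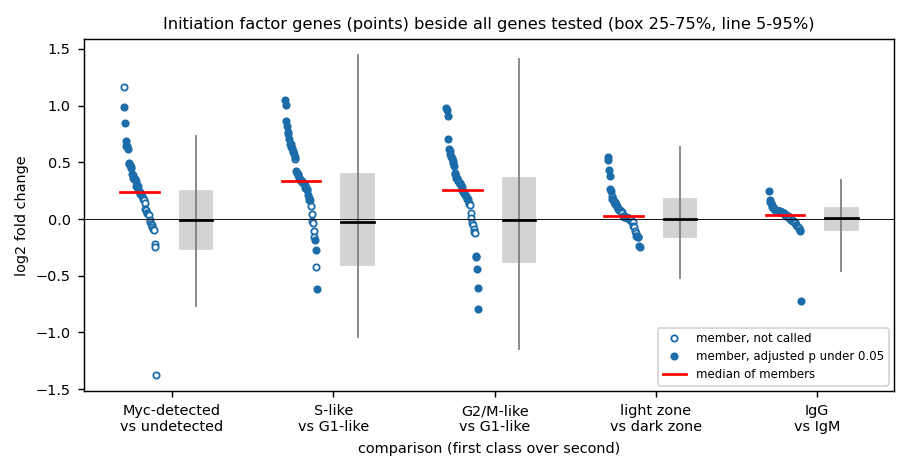
Log2 fold changes of the initiation factor genes (points, filled where the edgeR adjusted p was under 0.05) beside all genes tested (box from the 25th to the 75th percentile, line from the 5th to the 95th) in 5 comparisons. The red line is the median of the members, at 0.24 for Myc-detected cells, 0.33 and 0.26 for S-like and G2/M-like cells, 0.03 for the zone gates and 0.04 for isotypes.

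Other translation genes, a list of 46 that holds elongation and termination factors, poly(A)-binding and accessory factors, mTORC1 signalling and the eIF2 kinases, were read against the shares of all genes given above. In Myc-detected cells 11 of 45 tested were higher and 2 lower (edgeR; 24.4% and 4.44%, beside 10.3% and 6.36% of all genes), with a median log2 fold change of 0.08. Elongation and termination factors made up 7 of these, among them Eif5a, an elongation factor, with 1266 and 1710.2 CPM in Myc-detected cells, against 877 and 1033 CPM in Myc-undetected cells (0.66 ± 0.07, adjusted p = 2.18e-12). Eef1e1, a scaffold of tRNA synthetases, was higher by 1.03 ± 0.133. In S-like cells 17 of 45 tested were higher and 12 lower (37.8% and 26.7%, beside 28.5% and 27.7% of all genes, median 0.05). In G2/M-like cells 20 of 46 were higher and 11 lower (43.5% and 23.9%, beside 27.9% and 26.7%, median 0.14). Gspt1, the termination factor eRF3a, was higher by 1.11 and 1.03 on the log2 scale in S-like and G2/M-like cells. Genes of the eIF2 kinase and stress group ran lower in S-like cells (0 higher and 5 lower of 8), with Ddit3, a stress-induced transcription factor, at -1.25 ± 0.128. Pdcd4, which encodes an inhibitor of eIF4A, had 7.96 and 7.43 CPM in S-like cells, against 37.9 and 34.7 CPM in G1-like cells (-2.19 ± 0.132, adjusted p = 2.61e-17). In the same comparison, Eif4a1, the helicase it inhibits, was higher. In light zone gate cells 9 of 46 were higher and 6 lower (19.6% and 13.0%, near the 15.5% and 13.9% of all genes, median 0.01), and Rps6kb1, an mTORC1 target kinase, was lower by a log2 fold change of -0.31 ± 0.0504. In IgG cells 7 of 46 were higher (15.2%, beside 5.87% of all genes, median 0.02) and only Pdcd4 was lower (-0.90 ± 0.104).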

How the data were processed

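UMI counts per gene and cell barcode were deposited by the authors as 1 matrix per library, not normalized. Cell Ranger 3.0.2 made them, per the file headers, and the genome build was mm10, per the submitters' processing notes. The annotation and the rule for calling cells are not given in the sources used here. Library 1 held 8765 barcodes with 75121538 UMIs, and library 2 held 7868 with 61874342 UMIs. Scrublet (scanpy 1.11.5) called 0 doublets and is taken not to have worked, so no barcode was removed as a doublet and doublets may remain. Cells were thinned to 3400 UMIs, the 10th percentile rounded down, for zone, Myc and phase calls, which left out 465 and 391 shallower cells. Only 1 UMI decided the light zone gate in 847 and 550 cells, the dark zone gate in 573 and 387 and Myc detection in 89 and 79.

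Unthinned counts were summed per library and class and tested with edgeR 4.0.16 (filterByExpr, TMM, quasi-likelihood test, library as a block, Benjamini-Hochberg over all genes tested, threshold 0.05). With 2 libraries the fit has few degrees of freedom and shares its spread across genes. The classes of a library come from that library, and their deviations correlated across genes with r of 0.24 to 0.45. CPM are UMIs per 1000000 of a class's sum. On simulated counts the share of false calls among genes called exceeded the threshold in the zone, Myc and G2/M comparisons. Members and gene lists were chosen with earlier results of these data known. Named with values were, among members past the threshold, the 8 with the lowest adjusted p in each direction, and members of eIF4F, its inhibitors, eIF2 and eIF2B. Promoter sequences came from RefSeq (GRCm38.p6) and gene spans from GENCODE M21, matched by gene identifier. Alternatives were DESeq2 1.42.0, no block, other size factors, no count filter, mitochondrial limits of 10% and 40%, thinned sums, stricter gates, equal phases, G1-like cells alone, and sets without suspected doublets (the highest 6% of scores), other lineages, immunoglobulin genes or, chosen after seeing the data, naive and memory markers. A naive B marker is not reported here and was left out of the marker sums and sets.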

Additional observations from a re-analysis of the deposited data

How the results depend on the processing

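Counts of called members depended on the test. Without the replicate block that pairs the classes of a library, edgeR called 1 member in the zone comparison in place of 18, 0 in place of 5 for isotypes (1 at an unadjusted p under 0.05), 6 in place of 21 for Myc, 15 in place of 35 for G2/M-like and 19 in place of 38 for S-like cells. DESeq2 called 5 for the zones, 0 for isotypes (3 at an unadjusted p under 0.05), 8 for Myc and 25 for S-like cells. G1-like cells alone gave 2 for the zones, 2 for isotypes and 4 for Myc, with fewer cells and genes tested. For Myc, thinned sums gave 6, and 7 were called without barcodes with naive or memory markers. For isotypes, equal phase shares gave 3, mitochondrial limits of 10% and 40% gave 10 (all higher) and 18 (5 higher and 13 lower), and 1 was called without barcodes with naive or memory markers. Over all genes, 3129 were called between the zones, against 360 without the block and 810 by DESeq2. Without the block 92 of 11231 were called for isotypes, 633 of 10068 for Myc, 3643 of 10994 for G2/M-like and 4151 of 10604 for S-like cells. DESeq2 called 274 for isotypes, 401 for Myc and 3035 for S-like cells. For isotypes 1354 of 10450 were called at the 10% limit, 3133 of 11603 at 40% and 1193 of 11160 with equal phases. G1-like cells alone gave 516 of 7879 for the zones, 483 of 8437 for isotypes and 321 of 7379 for Myc. For Myc, members called were all higher in every alternative, and the median log2 fold change over all members tested, called or not, lay between 0.18 and 0.28. Leaving out 1 library allows no test, and the median log2 fold change of the members in a single library ranged from 0.16 to 0.27 for Myc, 0.03 to 0.05 for the zones, -0.00 to 0.07 for isotypes, 0.23 to 0.29 for G2/M-like and 0.28 to 0.37 for S-like cells. Of 619 tested alternative values for the 50 named single-gene results, 516 kept direction and call, 103 kept direction only and 0 reversed, and all 100 values from a single library, which carry no test, kept direction. Depth limits Eif3j2, Eif4e3 and Eif5a2 most, the members with fewer than 1000 UMIs.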
